A study of Mus musculus with 203 samples.

Results

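The 9 genes described here encode receptors and enzymes through which inhaled drugs, and the mediators they oppose, set the tone of the airways. They are the muscarinic receptor genes Chrm1, Chrm2 and Chrm3, the histamine receptor gene Hrh1, the adenosine receptor genes Adora1 and Adora2b, the adrenergic receptor gene Adrb1 and the phosphodiesterase genes Pde4b and Pde4d. They were chosen by name for their place in the pharmacology of the airway, from 43346 genes in the table, and all 9 passed the filter on low counts in every fit. The expression of each was followed in bulk RNA-seq libraries that fall into 20 groups of 10 to 12 by week, tissue and exposure.

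Airway tone is set by opposing G protein signals. Acetylcholine from parasympathetic nerves contracts airway smooth muscle mainly through the muscarinic receptor of Chrm3, which acts through Gq, phospholipase C and calcium, while the receptor of Chrm2 acts through Gi and lowers cyclic AMP, and on nerve endings limits further release of acetylcholine. Histamine contracts the muscle through the Gq-coupled receptor of Hrh1. Receptors that act through Gs, such as those of Adrb1 and Adora2b, raise cyclic AMP, which relaxes the muscle and damps many leukocyte responses, and the PDE4 enzymes of Pde4b and Pde4d break cyclic AMP down. Inhaled anticholinergic drugs block the muscarinic receptors, theophylline antagonizes adenosine receptors and roflumilast inhibits PDE4.

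The mice were female Balb/C with an age label of 18 to 20 weeks, and the labels name no genetic change in any group. Their airways and parenchyma were separated under a microscope before total RNA was extracted, and each tissue gave its own libraries. At 3 weeks the groups were PBS (11 airway and 12 parenchyma libraries) and house dust mite extract, HDM (10 and 10), given intranasally 5 days per week for 3 weeks. At 11 weeks there were 16 groups of 10, in which mice that had received PBS or HDM then breathed normal air (AIR) or cigarette smoke (CS) for 8 weeks, with HDM continued 3 times per week from week 4 to week 11 per the labels, and with or without dexamethasone (DEX), a synthetic glucocorticoid, in week 11. All 11-week comparisons within a tissue that use the PBS AIR group share those 10 control libraries, and the HDM AIR, PBS CS and HDM CS groups also serve in more than 1 comparison, so their results are not independent of each other. Airways gave 101 libraries in all. The labels do not say which airway and parenchyma libraries came from 1 mouse, so the main fits treated libraries as independent. Libraries with consecutive codes deviated together in many pairs, and a fit with such pairs as blocks is given at the end. Total counts per library were 13003087 to 40240680 (median 28090612), and the total count sets the precision most for the scarcest genes. The lowest count of Chrm1 in a library was 1 and that of Hrh1 was 6, whereas that of Pde4b was 595.

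The tissue labels were checked against markers, as sums over the listed genes of CPM, which are counts scaled to a library total of 1000000. In PBS airways at 3 weeks the 8 smooth muscle markers, such as Acta2 and Myh11, summed to 288 to 2451 CPM (median 742), against 156.8 to 203.1 (median 168.2) in PBS parenchyma. The 6 alveolar type I markers, such as Ager and Hopx, summed to 1075 to 4124 (median 3450) and 4378 to 6004 (median 5049), so the airway libraries also held alveolar RNA. The 8 cardiac muscle markers, such as Myh6 and Myl7, summed to 345 to 5438 CPM (median 749) in PBS airways and 29.98 to 40.03 (median 35.1) in PBS parenchyma. Of that list only Nppa had a median count of 0 in any group, in 9 of the 20 groups. By the log2 ratio of smooth muscle to alveolar type I markers, 12 of the 101 airway libraries (codes X27, X31, X41, X69, X93, X109, X183, X195, X197, X199, X201 and X203) lay within the range of the parenchyma libraries (-5.42 to -3.00), and the other 89 lay between -3.00 and 1.75. Each fitted comparison with airway libraries within a week was therefore also computed without those 12, an alternative chosen after the data were seen. The value is given wherever a call or direction changed. Differences between weeks and correlations with marker sums were not recomputed without them. In bulk tissue, fewer cells of a type and less RNA per cell cannot be told apart.

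Levels are given as CPM scaled by trimmed mean of M values (TMM) factors. Differences are log2 fold changes (log2FC) with standard errors (SE) from limma-voom, fitted across all genes of the 3-week or the 11-week libraries, and a gene is said to rise or fall where its Benjamini-Hochberg adjusted p-value was under 0.05. To compare genes with each other, levels were divided by exonic length. Per kilobase, the median levels in PBS parenchyma at 3 weeks were highest for Pde4b (8.02 CPM per kilobase), Adrb1 (7.88) and Adora2b (7.33). They were 0.965 for Chrm3, 0.923 for Chrm2, 0.632 for Pde4d and 0.571 for Adora1, and lowest for Hrh1 (0.136) and Chrm1 (0.124). In PBS airways at 3 weeks the order was led by Adora2b (6.31), Adrb1 (5.15), Pde4b (5.09) and Chrm2 (3.79), followed by Adora1 (1.18), Chrm3 (0.956), Pde4d (0.674), Chrm1 (0.230) and Hrh1 (0.208).

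**Figure D1:**
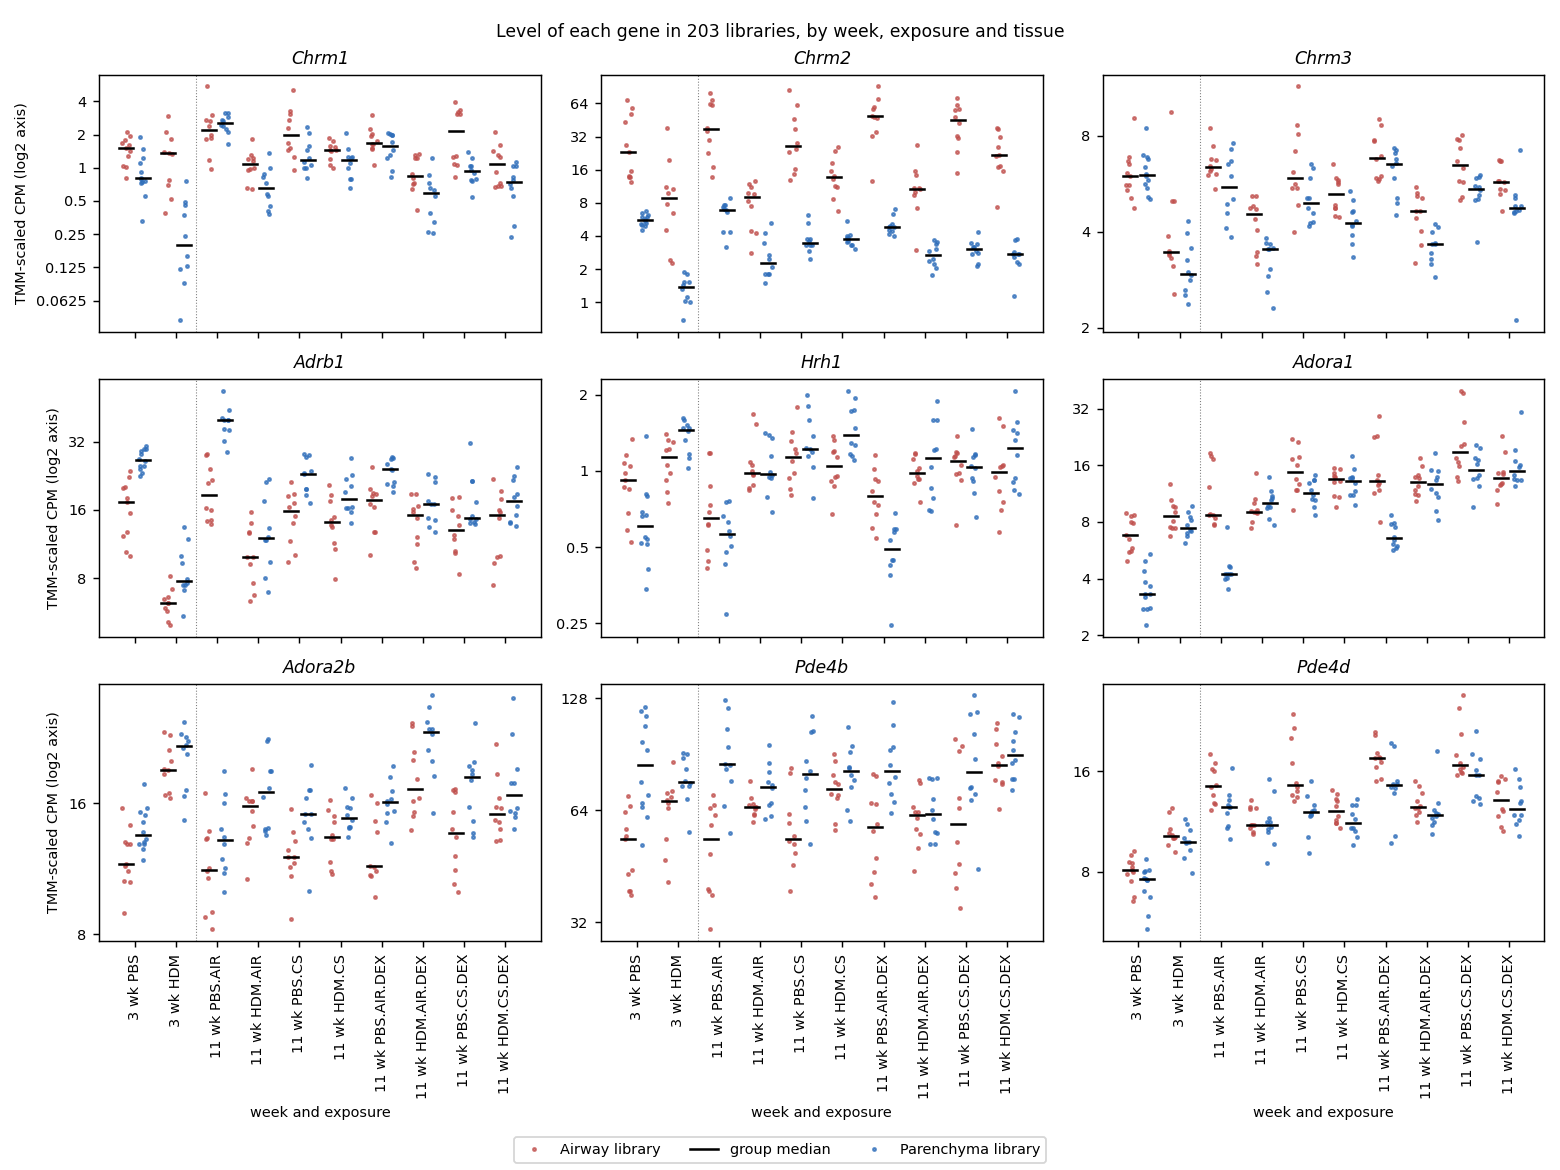
TMM-scaled CPM (log2 axis) of each of the 9 genes in every library, by week and exposure, with airway libraries in red, parenchyma libraries in blue and black bars at the group medians. The widest contrast is that of Chrm2, from a median of 48.9 CPM in airways of PBS mice with air and DEX to 1.38 CPM in parenchyma of HDM mice at 3 weeks, while the medians of Pde4b stay between 53.7 and 90.1 CPM.

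Across the 20 groups, the highest group median exceeded the lowest by a ratio of 35.5 for Chrm2, 12.7 for Chrm1, 6.41 for Adrb1, 5.73 for Adora1, 2.98 for Hrh1, 2.31 for Chrm3, 2.31 for Pde4d, 2.08 for Adora2b and 1.68 for Pde4b. In the order of the 20 medians, the ranges of neighbouring groups overlapped for every gene (0 of 19 neighbouring pairs were separate), so only groups further apart in the order could be told from each other by their ranges. The parenchyma of HDM mice at 3 weeks held the lowest median of all 3 muscarinic receptor genes and the highest of Hrh1. Airways of PBS mice with air and DEX held the highest medians of Chrm2, Chrm3 and Pde4d, and airways of PBS mice with smoke and DEX the highest of Adora1.

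The counts of genes that passed the test have to be read against the share of all genes that passed it, given after each count. HDM changed 6 of the 9 genes in airways at 3 weeks (74.6% of all 17381 genes tested) and 8 of 9 in parenchyma (77.7%). At 11 weeks it changed 8 of 9 in airways (61.1% of all 18250 genes tested) and 7 of 9 in parenchyma (59.5%). Smoke changed 2 of 9 in airways (13.7%) and 4 of 9 in parenchyma (35.9%), and HDM with smoke against PBS with air changed 7 of 9 (49%) and 5 of 9 (47.4%). DEX in PBS mice breathing air changed 2 of 9 in airways (14.9%) and 3 of 9 in parenchyma (22.6%). Within HDM mice it changed 1 of 9 in each tissue (28.6% and 28.5%), within smoke mice 1 of 9 in each tissue (11.3% and 16.9%), and within HDM mice with smoke it changed 0 of 9 in airways (9.30%) and 0 of 9 in parenchyma (7.86%). In PBS mice, airways and parenchyma differed in 7 of 9 genes at 3 weeks (56.1%) and in 6 of 9 at 11 weeks (56.4%). With so many genes of the whole table passing, the number of receptor genes that passed with HDM is close to what the table shows for genes in general, and the results below are their directions and sizes.

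**Figure D2:**
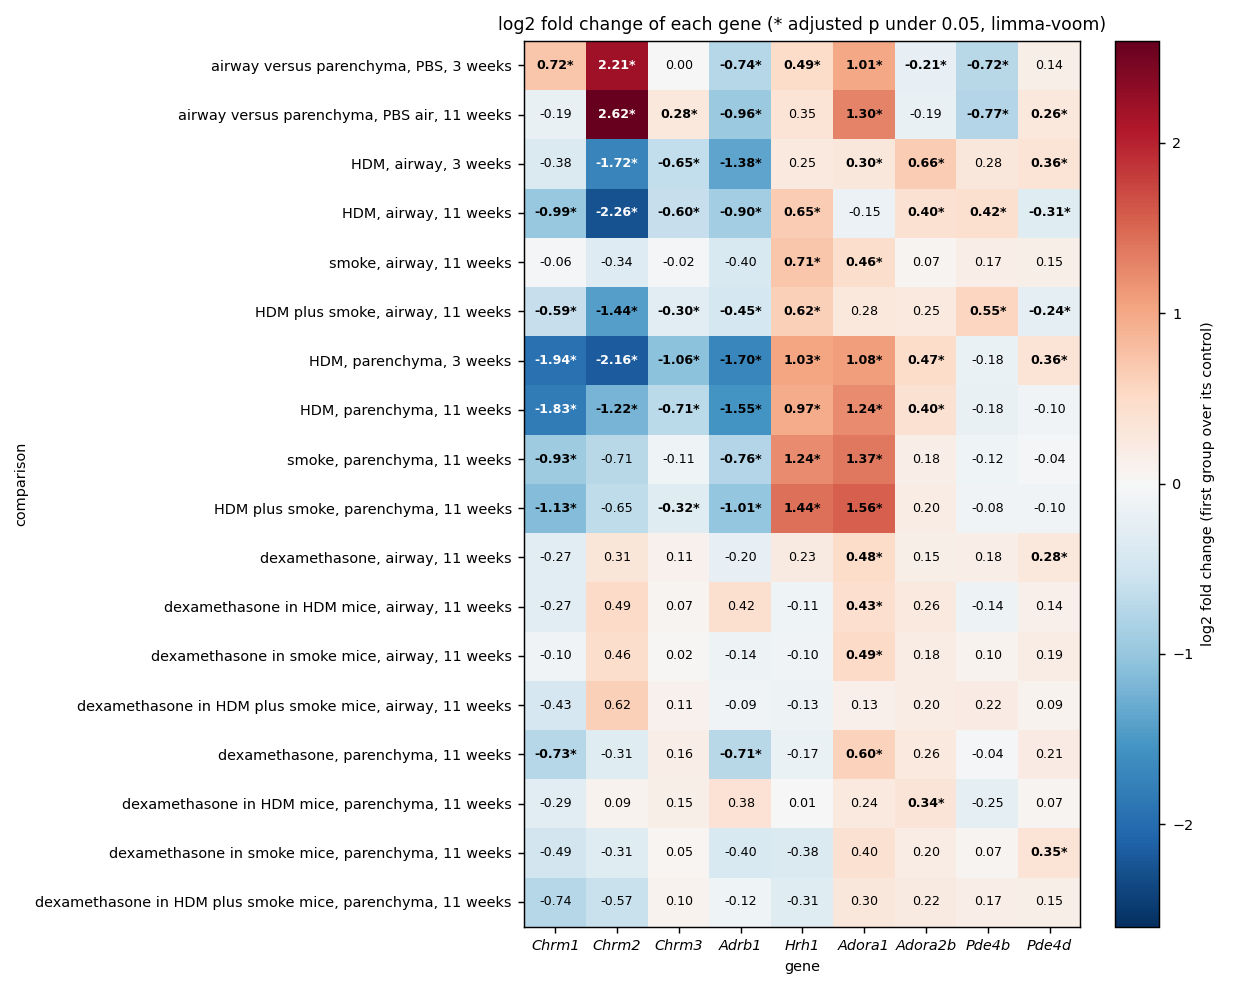
log2FC of each of the 9 genes (columns) in 18 comparisons (rows), from limma-voom, with asterisks at adjusted p-values under 0.05, blue for lower and red for higher in the first group. HDM rows show Chrm1, Chrm2, Chrm3 and Adrb1 below 0 at both weeks in both tissues, with Chrm1 in airways at 3 weeks the 1 value there that did not pass the test.

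Chrm3 lies at chr13:9875486-10360847 on the minus strand (ENSMUSG00000046159.11, mm10). HDM lowered this main contractile muscarinic receptor gene in both tissues at both weeks. In airways at 3 weeks its level was 4.74 to 9.10 CPM (median 5.98) in PBS mice and 2.56 to 9.49 (median 3.47) in HDM mice (log2FC -0.65, SE 0.14, limma adjusted p = 8.6e-05). The ranges overlapped there, with 7 of 10 HDM libraries below all PBS libraries, and 1 HDM library, X63, stood at 9.49 CPM with the next at 5.00. In parenchyma at 3 weeks the ranges were separate, from 5.07 to 8.46 CPM (median 6.03) in PBS mice to 2.38 to 4.32 (median 2.96) in HDM mice (log2FC -1.06, SE 0.16, adjusted p = 8.3e-08). At 11 weeks the ranges were also separate in both tissues. Airways held 5.45 to 8.46 CPM (median 6.39) with PBS and air and 3.16 to 5.18 (median 4.56) with HDM and air (log2FC -0.60, SE 0.12, adjusted p = 8.4e-06). Parenchyma held 3.86 to 7.62 CPM (median 5.53) and 2.31 to 3.84 (median 3.53) (log2FC -0.71, SE 0.13, adjusted p = 1.6e-06).

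The difference of the HDM effect on Chrm3 between tissues at 3 weeks did not pass the test (0.42 in log2, 95% interval -0.01 to 0.84, adjusted p = 0.17). Baseline levels of Chrm3 in PBS mice were close in the tissues at 3 weeks (medians 5.98 and 6.03 CPM) and higher in airways at 11 weeks (log2FC 0.28, SE 0.12, adjusted p = 0.032). With HDM and smoke together, Chrm3 was lower than with PBS and air by 0.30 in log2 in airways (log2FC -0.30, SE 0.11, adjusted p = 0.02) and by a similar size in parenchyma (log2FC -0.32, SE 0.13, adjusted p = 0.029), with overlapping ranges in each. The HDM effect in parenchyma was less negative in smoke mice than in air mice (difference 0.50, SE 0.19, adjusted p = 0.027), where medians were 4.92 CPM with PBS and smoke and 4.26 with HDM and smoke. Chrm3 did not pass the test for DEX in any setting. With the smooth muscle level as a covariate, an alternative added after the data were seen, the airway values no longer passed for HDM at 11 weeks (log2FC -0.29, adjusted p = 0.056) or for HDM with smoke (log2FC -0.13, adjusted p = 0.36).

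Chrm2 lies at chr6:36388084-36528414 on the plus strand (ENSMUSG00000045613.5), Adrb1 at chr19:56722199-56733113 on the plus strand (ENSMUSG00000035283.4) and Adora2b at chr11:62248984-62266453 on the plus strand (ENSMUSG00000018500.2), all in mm10. Of the 9 genes, Chrm2 had the widest range of levels, Adrb1 was separated between groups in the most comparisons and Adora2b was the one that rose with HDM in both tissues at both weeks, so the DNA just before their start sites is shown. A window was found for 8 of the 9 genes, and Chrm1 had none. Each window is the 250 bases before the gene's start in RefSeq annotation of GRCm38.p6 (mm10), read 5′ to 3′ on the plus strand, at chr6:36387834-36388083 for Chrm2, chr19:56721867-56722116 for Adrb1 and chr11:62248734-62248983 for Adora2b. Capitals mark a half-site of the cyclic AMP response element, TGACG or its reverse complement CGTCA.
Chrm2: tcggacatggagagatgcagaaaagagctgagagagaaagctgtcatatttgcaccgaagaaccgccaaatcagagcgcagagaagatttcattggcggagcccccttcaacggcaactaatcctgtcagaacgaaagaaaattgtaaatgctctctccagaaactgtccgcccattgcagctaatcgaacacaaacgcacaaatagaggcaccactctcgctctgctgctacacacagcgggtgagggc
Adrb1: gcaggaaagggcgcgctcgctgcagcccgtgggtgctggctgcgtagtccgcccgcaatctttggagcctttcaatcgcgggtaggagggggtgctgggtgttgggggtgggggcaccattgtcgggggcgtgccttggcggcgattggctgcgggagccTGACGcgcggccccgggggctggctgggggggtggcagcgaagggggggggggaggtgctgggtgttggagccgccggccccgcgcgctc
Adora2b: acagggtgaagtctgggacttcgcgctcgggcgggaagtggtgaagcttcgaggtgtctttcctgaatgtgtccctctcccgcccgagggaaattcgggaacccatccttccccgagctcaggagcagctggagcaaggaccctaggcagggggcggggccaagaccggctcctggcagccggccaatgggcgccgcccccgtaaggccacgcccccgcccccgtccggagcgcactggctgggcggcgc
The window of Adrb1 held 1 such half-site, 90 to 86 bases before the RefSeq start, which lies upstream of the gene position given above. Those of Chrm2 and Adora2b held 0, while 17.7% of 32817 windows of the same length held one. A half-site of the glucocorticoid response element, TGTTCT or its reverse complement AGAACA, was in none of these 3 windows and in 16.1% of all windows. GC content was 50% for Chrm2, 74% for Adrb1 and 69.6% for Adora2b, with a median of 52.4% over all windows, and CG dinucleotides numbered 12, 24 and 22, with a median of 6. A match or its absence describes only these letters.

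Chrm2, whose Gi-coupled receptor is also the main muscarinic receptor of the heart, was the gene that differed most between the tissues. In PBS mice at 3 weeks it stood at 12.4 to 68.2 CPM (median 22.96) in airways and at 4.55 to 6.69 (median 5.58) in parenchyma, with no overlap (log2FC 2.21, SE 0.38, adjusted p = 5.7e-06). At 11 weeks the PBS AIR levels were 13.6 to 79.4 CPM (median 37.4) and 3.16 to 8.85 (median 6.93), again without overlap (log2FC 2.62, SE 0.32, adjusted p = 2.5e-12). The SD of log2 CPM within a group was 0.61 to 1.26 in airways and 0.17 to 0.60 in parenchyma.

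HDM lowered Chrm2 in every tissue and week. In airways at 3 weeks HDM mice had 2.27 to 38.1 CPM (median 8.87), overlapping the PBS range (log2FC -1.72, SE 0.34, adjusted p = 2.3e-05). In parenchyma at 3 weeks HDM mice had 0.686 to 1.90 CPM (median 1.38), all below all PBS libraries (log2FC -2.16, 95% interval -3.50 to -0.82, adjusted p = 0.0035). At 11 weeks HDM mice had 2.77 to 12.6 CPM (median 9.02) in airways, all below the PBS AIR libraries (log2FC -2.26, SE 0.30, adjusted p = 4.2e-11). In parenchyma they had 1.49 to 5.22 CPM (median 2.29), which overlapped the controls (log2FC -1.22, SE 0.47, adjusted p = 0.018). The error in this fit is estimated from airway and parenchyma libraries together. With parenchyma libraries alone, a fit added after the data were seen, the HDM values there were -2.05 (SE 0.14, adjusted p = 3.5e-13) at 3 weeks and -1.24 (SE 0.17, adjusted p = 1.8e-09) at 11 weeks.

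Smoke alone left Chrm2 in airways at 13.0 to 84.4 CPM (median 26.4), and the difference from air did not pass the test (log2FC -0.34, 95% interval -0.79 to 0.12, adjusted p = 0.37). In parenchyma it stood at 2.47 to 6.21 CPM (median 3.46) with smoke and 3.03 to 5.50 (median 3.72) with HDM and smoke, against a median of 6.93 with PBS and air. These differences did not pass in the fit of both tissues (log2FC -0.71 and -0.65, adjusted p = 0.2 and 0.21) and passed in the fit of parenchyma libraries alone (log2FC -0.72 and -0.66, adjusted p = 0.00018 and 0.00028). HDM with smoke lowered Chrm2 in airways to 6.69 to 25.7 CPM (median 13.6; log2FC -1.44, SE 0.25, adjusted p = 4.9e-07). The HDM effect in airways was smaller in size in smoke mice than in air mice (difference 1.16, SE 0.40, adjusted p = 0.026), a call that was lost with airway libraries alone (adjusted p = 0.13) and without the 12 libraries in the parenchyma marker range (difference 0.89, adjusted p = 0.059). In parenchyma that difference was 1.28 (adjusted p = 0.12) in the fit of both tissues and 1.29 (adjusted p = 1e-05) with parenchyma libraries alone. Chrm2 did not pass the test for DEX in either tissue in the fit of both tissues. With parenchyma libraries alone it fell with DEX in HDM mice with smoke, to 1.15 to 3.73 CPM (median 2.73; log2FC -0.57, SE 0.18, adjusted p = 0.029), where 8 of 10 libraries lay below all those without DEX. Without the same 12 libraries, DEX in HDM mice with smoke raised it in airways (log2FC 0.67, adjusted p = 0.048).

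Muscle markers moved with Chrm2 in the airways. All 8 cardiac muscle markers fell with HDM in airways at both weeks, from a median sum of 749 to 268 CPM at 3 weeks and from 1838 to 284 at 11 weeks, and 4 and 8 of the 8 smooth muscle markers fell, from median sums of 742 to 523 CPM and from 1314 to 446. With HDM in airways 40.5% of all genes tested fell at 3 weeks and 29.8% at 11 weeks. The 4 of 8 smooth muscle markers at 3 weeks were thus near the share of all genes. In parenchyma at 3 weeks, where the ranges of Chrm2 were separate, 0 of 8 cardiac markers passed the test (median sums 35.1 and 24.3 CPM). There 1 smooth muscle marker rose and 1 fell (median sums 168.2 and 161.6), while 33.4% of all genes rose and 44.3% fell. These marker tests are from the fit of both tissues, and the markers were not tested with parenchyma libraries alone. HDM libraries X4, X44, X64, X84, X104, X124 and X144 had cardiac sums of 19.41 to 24.78 CPM, below the PBS parenchyma range given above. X24 (83.45) and X164 (32.61) did not lie below it, and the value of X184 is not given here. Within airway groups, libraries with more Chrm2 had more of both marker sums. Against the smooth muscle sum, Pearson's r on log2 values was 0.978 (Spearman's rho 0.973) over the 11 PBS libraries at 3 weeks, 0.952 (0.879) over the 10 HDM libraries, 0.921 (0.855) over the 10 PBS AIR libraries at 11 weeks and 0.844 (0.697) over the 10 HDM AIR libraries. Permutation p-values of r were 1e-05, the smallest that 100000 permutations can give, 7e-05, 0.00028 and 0.0034, and adjusted over the 16 relations computed they were 0.00016, 0.00022, 0.00064 and 0.0049. Those of rho were 3e-05, 0.0016, 0.0028 and 0.03 (adjusted 0.00048, 0.0044, 0.0061 and 0.036). Without the 2 libraries farthest from the median of the marker sum, r was 0.963, 0.882, 0.83 and 0.55, so the last relation rested in part on those libraries.

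Against the cardiac sum, r for Chrm2 was 0.922 (rho 0.909), 0.948 (0.939), 0.977 (0.952) and 0.932 (0.855) in the same order of groups, with permutation p-values of r of 0.00013, 4e-05, 2e-05 and 0.00034 (adjusted 0.00035, 0.00016, 0.00016 and 0.00068). Those of rho were 0.00033, 0.00023, 0.0001 and 0.003 (adjusted 0.0011, 0.0011, 0.0008 and 0.0061), and r was 0.854, 0.98, 0.961 and 0.808 without the 2 farthest libraries. The 4 pairs of gene and list were chosen after the data were seen. With the smooth muscle level as a covariate, an alternative also added after the data were seen, the HDM effect on Chrm2 in airways was -0.96 (SE 0.11, adjusted p = 5.3e-10) at 3 weeks and -0.64 (SE 0.18, adjusted p = 0.0012) at 11 weeks, and in parenchyma it was -2.11 and -1.23 (adjusted p = 1e-11 and 4.3e-06). The part of cardiac muscle in the result was not tested.

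**Figure D3:**
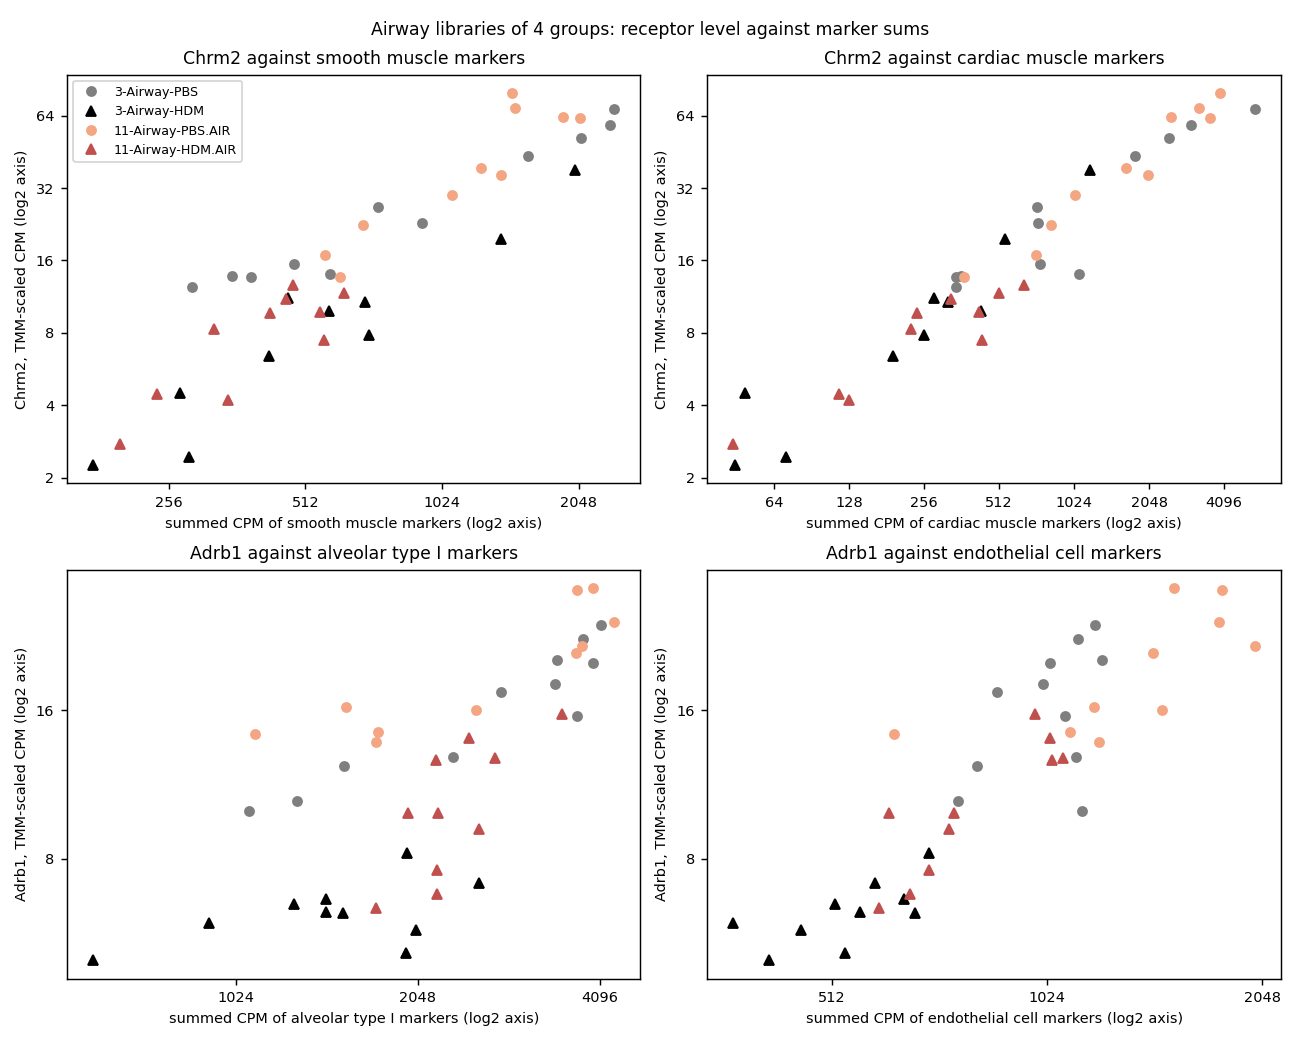
Level of Chrm2 (upper panels) and Adrb1 (lower panels), in TMM-scaled CPM, against the summed CPM of marker lists in the airway libraries of 4 groups, all axes log2. Each point is 1 library, with circles for PBS and triangles for HDM. Chrm2 rises with both muscle sums inside each group, and the HDM libraries at 11 weeks reach at most 12.6 CPM of Chrm2 and 643 CPM of the cardiac sum.

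Chrm1, at chr19:8663789-8683587 on the plus strand (ENSMUSG00000032773.5), encodes a Gq-coupled muscarinic receptor known from neurons, ganglia and glands. Its level was low throughout. In airways at 3 weeks it was 0.813 to 2.12 CPM (median 1.495) in PBS mice and 0.387 to 2.94 (median 1.35) in HDM mice, and the groups were not told apart (log2FC -0.38, 95% interval -0.92 to 0.16, adjusted p = 0.2). In parenchyma it was 0.328 to 1.89 CPM (median 0.805) and 0.0415 to 0.758 (median 0.201), a fall with overlapping ranges (log2FC -1.94, SE 0.41, adjusted p = 5e-05). The HDM effect differed between tissues at 3 weeks (difference 1.56, SE 0.49, adjusted p = 0.024), and leaving out library X64, X83 or X123 took that call away (1.31, 1.39 and 1.41, adjusted p = 0.062, 0.051 and 0.051).

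At 11 weeks Chrm1 fell with HDM in both tissues. In airways it went from 0.973 to 5.48 CPM (median 2.18) with PBS and air to 0.639 to 1.82 (median 1.08) (log2FC -0.99, SE 0.24, adjusted p = 0.00019). In parenchyma it went from 1.66 to 3.17 CPM (median 2.54), the highest group median of the gene, to 0.382 to 1.36 (median 0.649), with no overlap (log2FC -1.83, SE 0.27, adjusted p = 1.1e-09). With smoke, parenchyma held 0.804 to 2.32 CPM (median 1.18; log2FC -0.93, SE 0.23, adjusted p = 0.00071), and with HDM and smoke 0.649 to 2.06 (median 1.17; log2FC -1.13, SE 0.24, adjusted p = 3.3e-05). The HDM effect in parenchyma was accordingly less negative in smoke mice (difference 1.63, SE 0.38, adjusted p = 0.00019), while smoke in airways left Chrm1 at a median of 1.97 CPM. HDM with smoke lowered it in airways (log2FC -0.59, SE 0.22, adjusted p = 0.02), which was lost with airway libraries alone (adjusted p = 0.051). DEX in PBS mice lowered Chrm1 in parenchyma to 0.823 to 2.07 CPM (median 1.59; log2FC -0.73, SE 0.23, adjusted p = 0.011). In parenchyma of HDM mice with smoke the median with DEX was 0.740 CPM, which passed with parenchyma libraries alone (log2FC -0.74, adjusted p = 0.032) and not in the fit of both tissues (log2FC -0.74, adjusted p = 0.11). With the smooth muscle level as a covariate the airway values with HDM at 11 weeks and with HDM and smoke no longer passed (log2FC -0.23 and -0.17, adjusted p = 0.48 and 0.57). The HDM effect at 11 weeks differed between tissues without the 12 airway libraries (difference 0.95, adjusted p = 0.048) and not with them (0.84, adjusted p = 0.071). In PBS mice Chrm1 was higher in airways than in parenchyma at 3 weeks (log2FC 0.72, SE 0.28, adjusted p = 0.028), a call lost without library X122 or X182 (adjusted p = 0.06 and 0.051).

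Hrh1, at chr6:114397936-114483296 on the plus strand (ENSMUSG00000053004.8), encodes the histamine receptor that contracts airway smooth muscle and opens vascular endothelium. Where Hrh1 passed the test with HDM, it rose and the muscarinic genes fell. In parenchyma at 3 weeks its level was 0.343 to 1.37 CPM (median 0.606) in PBS mice and 1.02 to 1.61 (median 1.46) in HDM mice (log2FC 1.03, SE 0.17, adjusted p = 1e-06), with overlapping ranges. In airways it was 0.524 to 1.34 CPM (median 0.923) and 0.747 to 1.39 (median 1.14), which did not pass (log2FC 0.25, 95% interval -0.07 to 0.58, adjusted p = 0.15). The effect differed between tissues (difference -0.78, SE 0.23, adjusted p = 0.02). In PBS mice at 3 weeks Hrh1 was higher in airways (log2FC 0.49, SE 0.18, adjusted p = 0.017).

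At 11 weeks HDM raised Hrh1 in airways, from 0.413 to 1.17 CPM (median 0.653) to 0.843 to 1.67 (median 0.984; log2FC 0.65, SE 0.18, adjusted p = 0.00082), and in parenchyma, from 0.273 to 0.761 (median 0.566) to 0.685 to 1.41 (median 0.974; log2FC 0.97, SE 0.19, adjusted p = 3.3e-06). Smoke did the same without HDM. Its median was 1.13 CPM in airways (log2FC 0.71, SE 0.17, adjusted p = 0.0016) and 1.22 in parenchyma (log2FC 1.24, SE 0.18, adjusted p = 1.6e-08), where all 10 smoke libraries (0.781 to 1.99 CPM) lay above all 10 air libraries. HDM and smoke together gave medians of 1.04 CPM in airways (log2FC 0.62, SE 0.17, adjusted p = 0.0016) and 1.38 in parenchyma (log2FC 1.44, SE 0.18, adjusted p = 1.3e-11, no overlap). The joint level was below the sum of the separate log2 changes in airways (interaction -0.74, SE 0.24, adjusted p = 0.018) and in parenchyma (interaction -0.77, SE 0.24, adjusted p = 0.0083). Hrh1 did not pass the test for DEX in any setting.

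Adora1, at chr1:134199223-134235431 on the minus strand (ENSMUSG00000042429.8), encodes a Gi-coupled adenosine receptor. In PBS mice it was higher in airways than in parenchyma. At 3 weeks the levels were 4.94 to 8.94 CPM (median 6.83) and 2.27 to 5.41 (median 3.30), which overlapped (log2FC 1.01, SE 0.14, adjusted p = 1.6e-07), and at 11 weeks 7.73 to 18.6 (median 8.75) and 3.53 to 7.49 (median 4.24), with no overlap (log2FC 1.30, SE 0.21, adjusted p = 4.8e-08). HDM raised it in parenchyma at 3 weeks to 6.19 to 9.67 CPM (median 7.48), above all PBS libraries (log2FC 1.08, SE 0.14, adjusted p = 9e-09). At 11 weeks HDM raised it there to 7.69 to 13.9 CPM (median 10.1), above all PBS AIR libraries (log2FC 1.24, SE 0.22, adjusted p = 2.2e-07). In airways the rise at 3 weeks was smaller, to 6.70 to 12.7 CPM (median 8.57; log2FC 0.30, SE 0.12, adjusted p = 0.017), and at 11 weeks the HDM libraries (7.43 to 14.6 CPM, median 9.09) overlapped the controls without passing the test (adjusted p = 0.49). The HDM effect on Adora1 differed between tissues at 3 weeks (airway minus parenchyma -0.78, SE 0.18, adjusted p = 0.0039) and at 11 weeks (-1.38, SE 0.28, adjusted p = 5.8e-05).

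Smoke raised Adora1 in both tissues. Airways held 9.30 to 22.04 CPM (median 14.8; log2FC 0.46, SE 0.16, adjusted p = 0.038) and parenchyma 8.68 to 14.2 (median 11.4), above all air libraries (log2FC 1.37, SE 0.21, adjusted p = 5e-08). HDM with smoke gave 9.86 to 18.0 CPM (median 13.3) in parenchyma, also above all of them (log2FC 1.56, SE 0.21, adjusted p = 1.7e-10), and the interaction was -1.05 (SE 0.27, adjusted p = 0.0011). DEX raised Adora1 in PBS airways to 8.00 to 29.2 CPM (median 13.2; log2FC 0.48, SE 0.16, adjusted p = 0.03), in smoke airways to 13.2 to 39.8 (median 18.9; log2FC 0.49, SE 0.15, adjusted p = 0.015) and in PBS parenchyma to 5.69 to 8.72 (median 6.55; log2FC 0.60, SE 0.23, adjusted p = 0.045). In HDM airways it passed just under the threshold (median 13.1 CPM, log2FC 0.43, SE 0.17, adjusted p = 0.05 as rounded). With airway libraries alone in the fit the airway calls with smoke and with DEX were lost (adjusted p = 0.11 with smoke, 0.085 with DEX, 0.12 with DEX in HDM mice and 0.058 with DEX in smoke mice), at nearly unchanged log2FC. In smoke parenchyma the median with DEX was 15.2 CPM, which passed with parenchyma libraries alone (log2FC 0.39, adjusted p = 0.018) and not in the fit of both tissues (log2FC 0.40, adjusted p = 0.084).

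With HDM in parenchyma at 3 weeks and with smoke at 11 weeks, macrophage and neutrophil markers rose with Hrh1 and Adora1. In parenchyma at 3 weeks the summed level of the 6 macrophage markers, such as Cd68 and Marco, went from 347 to 1027 CPM (median 510.5) to 3386 to 23660 (median 7742) with HDM, with 5 of 6 higher, and that of the 6 neutrophil markers, such as S100a8, from 292.8 to 526.2 (median 370.4) to 1133 to 3433 (median 1502), with 6 of 6 higher. With smoke at 11 weeks the macrophage sum in parenchyma went from 642 to 1185 CPM (median 713) to 2004 to 2982 (median 2304), and 6 of 6 macrophage and 5 of 6 neutrophil markers rose. In airways with smoke 6 of 6 of each list rose (macrophage medians 451 and 976 CPM). Among all genes tested, 33.4% rose with HDM in parenchyma at 3 weeks, 17.7% with smoke in parenchyma and 7.66% with smoke in airways. Where DEX raised Adora1, 2 of 6 macrophage and 0 of 6 neutrophil markers rose in PBS airways (macrophage medians 451 and 748 CPM) and 0 of 6 of each list in smoke airways (medians 976 and 1261). In HDM airways 1 of 6 macrophage markers rose with DEX and 1 of 6 neutrophil markers fell, and in PBS parenchyma 2 of 6 and 3 of 6 rose (macrophage medians 713 and 1773 CPM). Among all genes, DEX raised 8.03% in PBS airways, 4.68% in smoke airways, 12.5% in HDM airways and 10.6% in PBS parenchyma. It lowered 16% in HDM airways. In airways at 3 weeks, where Hrh1 did not pass, 5 of 6 macrophage markers also rose and 1 fell (median sums 444 and 3991 CPM), and 6 of 6 neutrophil markers rose. There 34.1% of all genes rose and 40.5% fell. No marker of either list had a median count of 0 in any group. Their part in the levels of Hrh1 and Adora1 was not tested.

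Adora2b encodes a Gs-coupled adenosine receptor of low affinity, found on epithelium, mast cells and macrophages. HDM raised it in every tissue and week. In airways at 3 weeks PBS libraries held 8.98 to 15.7 CPM (median 11.6) and HDM libraries 16.5 to 23.4 (median 19.1), with no overlap (log2FC 0.66, SE 0.09, adjusted p = 9.7e-09). In parenchyma the ranges were 11.9 to 17.7 CPM (median 13.5) and 14.6 to 24.7 (median 21.6), overlapping (log2FC 0.47, SE 0.09, adjusted p = 8.7e-06). At 11 weeks the medians went from 11.3 to 15.8 CPM in airways (log2FC 0.40, SE 0.12, adjusted p = 0.002) and from 13.2 to 17.0 in parenchyma (log2FC 0.40, SE 0.12, adjusted p = 0.0016), with overlap in both. Smoke left the medians at 12.1 and 15.1 CPM without passing the test. DEX in HDM mice raised Adora2b further in parenchyma, to 15.2 to 28.3 CPM (median 23.4; log2FC 0.34, SE 0.11, adjusted p = 0.01), the highest group median of the gene, and the value in HDM airways did not pass (median 17.3 CPM, log2FC 0.26, adjusted p = 0.069). In PBS mice at 3 weeks it was slightly lower in airways (log2FC -0.21, adjusted p = 0.048), which was lost in 26 of 43 fits that each left out 1 library. With the smooth muscle level as a covariate the rise in airways at 11 weeks did not pass (log2FC 0.12, adjusted p = 0.47), while that at 3 weeks did (log2FC 0.60, adjusted p = 9.9e-08).

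Adrb1 encodes the Gs-coupled receptor best known from the heart, which in lung is found mainly on alveolar cells. It was higher in parenchyma than in airways of PBS mice, with 22.6 to 30.7 CPM (median 26.7) against 9.99 to 23.9 (median 17.4) at 3 weeks, a small overlap (log2FC -0.74, SE 0.11, adjusted p = 6.1e-07). At 11 weeks the levels were 28.8 to 53.6 CPM (median 39.8) against 13.8 to 28.3 (median 18.6), without overlap (log2FC -0.96, SE 0.15, adjusted p = 7.7e-09). HDM lowered it in every tissue and week. At 3 weeks all HDM libraries lay below all PBS libraries, at 4.99 to 8.21 CPM (median 6.21) in airways (log2FC -1.38, SE 0.15, adjusted p = 8.3e-11) and 5.48 to 13.4 (median 7.77) in parenchyma (log2FC -1.70, SE 0.14, adjusted p = 1.2e-14). At 11 weeks HDM airways held 6.34 to 15.7 CPM (median 9.92), overlapping the controls (log2FC -0.90, SE 0.18, adjusted p = 3.7e-06), and HDM parenchyma 6.96 to 21.8 (median 12.0), below all of them (log2FC -1.55, SE 0.16, adjusted p = 4.6e-16). The fall at 11 weeks was larger in parenchyma (airway minus parenchyma 0.65, SE 0.24, adjusted p = 0.033). Without the 12 airway libraries in the parenchyma marker range that difference was 0.60 (adjusted p = 0.063).

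Smoke lowered Adrb1 in parenchyma to 17.2 to 28.3 CPM (median 23.1), below all air libraries (log2FC -0.76, SE 0.15, adjusted p = 1.1e-05). In airways the value with smoke (median 15.8 CPM) did not pass (log2FC -0.40, 95% interval -0.71 to -0.07, adjusted p = 0.092). HDM with smoke gave a median of 17.9 CPM in parenchyma (log2FC -1.01, SE 0.15, adjusted p = 5.2e-09, no overlap with PBS and air) and 14.1 in airways (log2FC -0.45, SE 0.16, adjusted p = 0.014). Both were above the medians with HDM and air, 12.0 and 9.92 CPM. The HDM effect was accordingly less negative in smoke mice than in air mice, by 1.29 in parenchyma (SE 0.23, adjusted p = 8.9e-07) and by 0.84 in airways (SE 0.24, adjusted p = 0.0076).

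DEX lowered Adrb1 in PBS parenchyma to 19.2 to 27.4 CPM (median 24.1), below all PBS AIR libraries (log2FC -0.71, SE 0.15, adjusted p = 6.5e-05). In HDM parenchyma with DEX the level was 12.8 to 23.1 CPM (median 17.0), which overlapped HDM without DEX and did not pass (log2FC 0.38, 95% interval 0.03 to 0.73, adjusted p = 0.096). These DEX effects differed (HDM minus PBS 1.09, SE 0.23, adjusted p = 0.00044), and this was the 1 of 9 genes that passed for this difference in parenchyma (12.4% of all genes), while 0 of 9 passed in airways (4.62%), where the value for Adrb1 was 0.62 (adjusted p = 0.13). In smoke parenchyma DEX gave a median of 14.8 CPM (log2FC -0.40, adjusted p = 0.065), which passed with parenchyma libraries alone (log2FC -0.41, adjusted p = 0.033).

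With HDM, endothelial markers moved with Adrb1 in both tissues at both weeks. Most alveolar type I markers did so too, except in airways at 11 weeks. All 5 endothelial markers, such as Pecam1 and Cdh5, fell with HDM in both tissues at both weeks, and their sum went from 768 to 1224 CPM (median 1086) to 373 to 700.5 (median 547) in airways and from 1107 to 1574 (median 1231) to 510.5 to 757 (median 639) in parenchyma at 3 weeks, with no overlap. At 11 weeks in parenchyma it went from a median of 2315 to 906 with HDM, 1766 with smoke and 1551 with both. Of the 6 alveolar type I markers, 5 fell with HDM in each tissue at 3 weeks, 2 fell and 1 rose in airways at 11 weeks, and 5 fell and 1 rose in parenchyma. Among all genes tested, 40.5% fell in airways and 44.3% in parenchyma at 3 weeks. At 11 weeks 29.8% fell and 31.3% rose in airways, and 26.9% fell and 32.6% rose in parenchyma. The 2 of 6 in airways at 11 weeks were thus near the share of all genes. With smoke in parenchyma, 3 of 5 endothelial and 0 of 6 alveolar type I markers fell (18.2% of all genes fell), and the alveolar type I sum had medians of 6055 and 5218 CPM. With DEX in PBS parenchyma, where Adrb1 fell, the endothelial sum went from 1894 to 2522 CPM (median 2315) to 1658 to 2047 (median 1875), with 2 of 5 lower. There the alveolar type I sum went from 5537 to 6530 CPM (median 6055) to 6392 to 7391 (median 6831), with 0 of 6 passing. DEX in PBS parenchyma lowered 12% of all genes and raised 10.6%. Within airway groups, r between Adrb1 and the alveolar type I sum was 0.93 (rho 0.909, permutation p 4e-05 and 0.00032, adjusted 0.00016 and 0.0011) in PBS mice at 3 weeks and 0.517 (rho 0.37, permutation p 0.13 and 0.3, adjusted 0.13 and 0.3) in HDM mice. At 11 weeks it was 0.875 (rho 0.842, permutation p 0.0024 and 0.0037, adjusted 0.0038 and 0.0067) with PBS and air and 0.729 (rho 0.624, permutation p 0.013 and 0.06, adjusted 0.016 and 0.068) with HDM and air. Without the 2 farthest libraries these r were 0.846, 0.051, 0.914 and 0.407, so the relation in HDM mice rested on those libraries.

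Against the endothelial sum, r for Adrb1 in the same order of groups was 0.48, 0.664, 0.712 and 0.877 (rho 0.491, 0.709, 0.77 and 0.77). Permutation p-values of r were 0.14, 0.036, 0.012 and 0.0017 (adjusted 0.14, 0.041, 0.016 and 0.003) and those of rho 0.13, 0.026, 0.013 and 0.013 (adjusted 0.14, 0.035, 0.02 and 0.02). Without the 2 farthest libraries r was 0.039, 0.653, 0.849 and 0.879. With the smooth muscle level as a covariate the HDM effect on Adrb1 in airways was -1.55 (adjusted p = 1.2e-14) at 3 weeks and -1.30 (adjusted p = 5.6e-09) at 11 weeks. The part of endothelial and alveolar type I cells in the result was not tested.

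**Figure D4:**
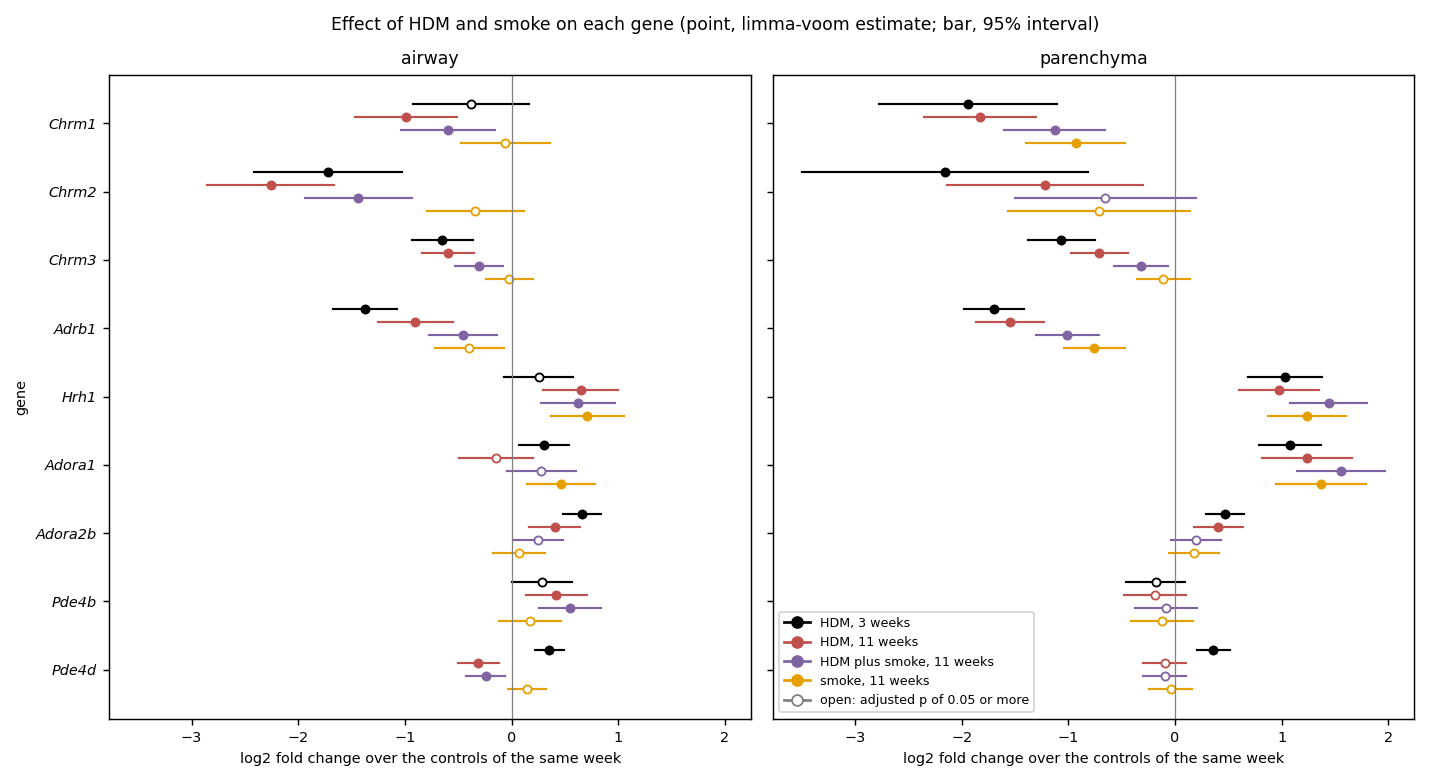
log2FC (points) with 95% intervals (bars) of the 9 genes in airways (left) and parenchyma (right) for HDM at 3 weeks, and for HDM, smoke and both at 11 weeks, each against the PBS controls of its week, with open points at adjusted p-values of 0.05 or more. In parenchyma the smoke intervals for Hrh1 and Adora1 lie above 0 and those for Chrm1 and Adrb1 below 0, on the same sides as the HDM intervals.

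Pde4b, at chr4:102087543-102607259 on the plus strand (ENSMUSG00000028525.12), encodes the PDE4 enzyme that prevails in leukocytes. It was lower in airways than in parenchyma of PBS mice, with 37.9 to 70.2 CPM (median 53.7) against 51.7 to 121.6 (median 84.7) at 3 weeks (log2FC -0.72, SE 0.13, adjusted p = 1.5e-05) and medians of 53.7 and 85.03 at 11 weeks (log2FC -0.77, SE 0.15, adjusted p = 2.6e-06), with overlap in both. With HDM in airways at 3 weeks it was 41.1 to 86.2 CPM (median 67.7), which did not pass (log2FC 0.28, 95% interval 0.01 to 0.57, adjusted p = 0.061) but did without the 12 airway libraries in the parenchyma marker range (log2FC 0.39, adjusted p = 0.03). At 11 weeks it rose to 59.7 to 76.9 CPM (median 65.5; log2FC 0.42, SE 0.15, adjusted p = 0.0092), and with HDM and smoke to 56.5 to 90.6 (median 73.2; log2FC 0.55, SE 0.15, adjusted p = 0.00088). In parenchyma the HDM medians were 76.4 CPM at 3 weeks (adjusted p = 0.22) and 74.1 at 11 weeks (adjusted p = 0.28). The HDM effect at 11 weeks differed between tissues (0.61, SE 0.21, adjusted p = 0.02). With the smooth muscle level as a covariate the rise in airways at 11 weeks did not pass (log2FC 0.14, adjusted p = 0.5).

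Pde4d, at chr13:108449948-109953461 on the plus strand (ENSMUSG00000021699.13), encodes a PDE4 enzyme of airway smooth muscle and many other cells. Its response to HDM changed sign between the weeks in airways. At 3 weeks the level was 6.55 to 9.24 CPM (median 8.09) with PBS and 9.14 to 12.4 (median 10.2) with HDM in airways (log2FC 0.36, SE 0.07, adjusted p = 1.5e-05). In parenchyma it was 5.37 to 8.74 CPM (median 7.58) and 7.91 to 11.5 (median 9.79) (log2FC 0.36, SE 0.08, adjusted p = 4e-05). At 11 weeks the airway level was 12.2 to 18.0 CPM (median 14.4) with PBS and air and 10.3 to 13.1 (median 11.0) with HDM and air (log2FC -0.31, SE 0.10, adjusted p = 0.0034), and with HDM and smoke the median was 12.2 (log2FC -0.24, adjusted p = 0.024). In parenchyma the medians at 11 weeks were 12.5 and 11.1 CPM (adjusted p = 0.43). The PBS and HDM ranges overlapped in each of these comparisons. The airway calls at 11 weeks were lost with the smooth muscle level as a covariate (log2FC -0.16 with HDM, adjusted p = 0.24, and -0.16 with HDM and smoke, adjusted p = 0.18), and that with HDM and smoke also without the 12 airway libraries (log2FC -0.21, adjusted p = 0.06).

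The difference of the HDM effect between 11 and 3 weeks was tested in a fit of all libraries of 18528 genes. It passed for 1 of 9 genes in airways (28.4% of all genes) and 1 of 9 in parenchyma (42.4%), Pde4d in each (-0.73, SE 0.14, adjusted p = 9.5e-06 in airways and -0.58, SE 0.15, adjusted p = 0.00052 in parenchyma). The PBS medians of Pde4d were 8.09 CPM at 3 weeks and 14.4 at 11 weeks in airways, and week, length of exposure and any difference in handling between the weeks cannot be told apart. DEX raised Pde4d in PBS airways to 15.0 to 20.9 CPM (median 17.5; log2FC 0.28, SE 0.09, adjusted p = 0.022) and in smoke parenchyma to 12.7 to 21.2 (median 15.6; log2FC 0.35, SE 0.10, adjusted p = 0.0058). The effect of HDM differed between tissues for 3 of 9 genes at 3 weeks (17.3% of all genes) and 3 of 9 at 11 weeks (27.6%), and between smoke and air mice for 3 of 9 in airways (19.1%) and 5 of 9 in parenchyma (36%), as given under each gene.

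Other genes of the same pathways were counted from lists written by hand, given as HDM in airways and in parenchyma at 3 weeks. Of all genes tested, 34.1% rose and 40.5% fell in airways and 33.4% rose and 44.3% fell in parenchyma, and the counts of each list have to be read against these shares. Of 8 other muscarinic, histamine, adenosine and adrenergic receptor genes tested of the 14 listed, 4 rose and 4 fell in airways and 4 rose and 3 fell in parenchyma (median log2FC 0.22 and 0.63, against -0.07 and -0.13 over all genes). The largest were falls of Adrb3 (log2FC -2.70, SE 0.24, and -3.75, SE 0.32) and Adra2b (-2.14 and -3.27) and rises of Hrh2 (2.604, SE 0.30, and 3.01, SE 0.32) and Adora3 (1.91 and 2.22), all with limma adjusted p-values under 0.05. At 11 weeks Adrb3 fell again (-2.49 in airways and -2.70 in parenchyma) and Hrh2 (1.91 and 1.79) and Adora3 (1.78 and 1.95) rose again. Of 14 other cyclic nucleotide phosphodiesterase genes tested of the 15 listed, 3 rose and 7 fell in airways and 4 rose and 6 fell in parenchyma (median log2FC -0.22 and -0.25). Pde3a, which degrades cyclic AMP in muscle, fell by 1.84 and 2.00 on the log2 scale, Pde8b by 1.67 and 2.09, while Pde10a (1.49 and 2.17) and Pde11a (1.47 and 2.18) rose.

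The shares of all genes given above apply to the other lists too. Of 19 genes of the Gs and Gi arm, 6 rose and 9 fell in airways and 6 rose and 12 fell in parenchyma (median log2FC -0.14 and -0.22). The adenylyl cyclases Adcy1 (log2FC -1.29 and -2.34) and Adcy8 (-1.39 and -1.62) fell, and Prkar1b, a regulatory subunit of protein kinase A (0.89 and 0.90), and Gnai2, an inhibitory G protein (0.80 and 1.03), rose. Of 12 genes of the Gq arm, 4 rose and 4 fell, and 4 rose and 6 fell (median -0.04 and -0.15), with the phospholipase C genes Plcb2 (1.24 and 1.29) rising and Plcb4 (-0.70 and -1.25) falling. Of 12 genes of receptor kinases, arrestins and RGS proteins, which end receptor signals, 6 rose and 2 fell, and 5 rose and 2 fell (median 0.26 and 0.10), led by Rgs1 (2.79 and 3.90) and Rgs16 (2.23 and 3.31), while Grk5 fell (-0.62 and -0.79). Of 14 genes tested of the 18 listed for ligand synthesis and clearance, 2 rose and 8 fell, and 3 rose and 6 fell (median -0.23 and -0.23). Bche, which hydrolyses choline esters, fell (-2.02 and -2.44) and Ada, which clears adenosine, rose (2.09 and 1.85). Of 10 cyclic AMP response genes, 1 rose and 6 fell, and 2 rose and 5 fell (median -0.75 and -0.53).

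The genes whose pattern was most like that of each member were named by Pearson's r of mean log2 CPM over the 20 groups, among 15841 protein-coding genes. For Chrm2 they were Sphkap (r = 0.987), Mylk3 (0.986) and Kcnj5 (0.981), of which Mylk3 is the myosin light chain kinase of heart muscle. For Adrb1 they were Ptprg (0.982), Ramp2 (0.982) and Thbd (0.982), and for Chrm3 Igf2 (0.957), Ncam2 (0.953) and Glb1l2 (0.951). For Chrm1 they were Sptb (0.921), Msi2 (0.914) and Ccar2 (0.913), for Hrh1 Lemd1 (0.914), Steap4 (0.905) and Taldo1 (0.899), and for Adora1 Pla2g6 (0.948), Eml2 (0.932) and Kng2 (0.929). Adora2b was followed by B4galt3 (0.949), Tatdn2 (0.94) and Il33 (0.924), Pde4b by Xrn2 (0.901), Cr1l (0.893) and Prr5l (0.886), and Pde4d by D5Ertd579e (0.953), Fam120c (0.952) and Ttll5 (0.952). These values describe 20 group means that share tissue and exposure, with groups weighted equally.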

How the data were processed

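Total RNA of airway and parenchyma was sequenced by the authors as 100 bp single reads on a NovaSeq. Per the submitters' processing notes and the study's methods, bcl2fastq 2.20.0.422, STAR 2.5.1b (mm10), RSEM 1.2.31 and Kallisto 0.44.0 were used. The authors deposited 1 table of estimated counts per gene (43346 genes), with no scaling for depth or length. Which quantifier made it and the read strand are not given in the sources used here, so genes overlapping on opposite strands, or near-identical copies, could share counts. Since 20.3% of non-zero values were not whole, values were rounded. GENCODE M21 symbols and positions were matched to 97.96% of identifiers.

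In R 4.3.3, a gene was kept where at least 9 libraries reached the CPM that 10 counts make at the median depth, and the kept genes were scaled by TMM (edgeR 4.0.16) and fitted with limma-voom (limma 3.58.1), with 1 mean per group and Benjamini-Hochberg adjustment over all genes tested. The 43 libraries at 3 weeks, the 160 at 11 weeks and, for differences between weeks, all of them together shared a fit. Calls used an adjusted p-value under 0.05. The scripts were tested on simulated data. Permutation tests were 2-sided, with 100000 permutations. Depth was 13003087 to 40240680 counts per library. No 2 libraries of a group agreed within sampling noise (lowest chi-square per degree of freedom 7.87). Where nothing states separate animals, p-values measure the spread between libraries, which may be partly technical, and counting error is covered only as part of it.

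The genes described, the gene lists and the tests were chosen with earlier results of these data known. Named were the 9 genes, the 3 protein-coding genes with the highest correlation to each over group means, up to 2 genes per direction with the largest change in a pathway list, and marker genes of lists that moved with a gene. The alternatives tried were DESeq2 1.42.0 and its size factors, the quasi-likelihood test of edgeR, a CPM of at least 10, no filter, sample quality weights, leaving out libraries, and all libraries in 1 fit. The smooth muscle covariate, leaving out the 12 airway libraries named in the text, fits of 1 tissue and a replicate block of consecutive library codes were added after the data were seen. No columns of the authors' comparisons were used.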

Additional observations from a re-analysis of the deposited data

Results flagged for a closer look

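In groups of 10 libraries, Dixon's test on the log2 scale, which chance alone passes in about 1 of 20 groups, marked 11 sets of a gene and a group, over 9 genes in 18 groups, where 8.1 would be marked at 1 in 20. Library X160, in parenchyma of HDM mice with smoke and DEX, stood apart in 3 of them, lowest for Chrm2 (1.15 CPM, the next at 2.22), lowest for Chrm3 (2.11 CPM, the next at 4.58) and highest for Adora1 (30.6 CPM, the next at 19.2). Chrm2 was also lowest at 12.7 CPM in airways of PBS mice with air and DEX (library X27, 1 of the 12 in the parenchyma marker range, with the next at 32.5) and highest at 5.50 CPM in parenchyma of HDM mice with smoke. Chrm3 was highest at 9.49 CPM in HDM airways at 3 weeks (library X63) and lowest at 3.71 CPM in parenchyma of PBS mice with smoke and DEX. The other libraries that stood apart held 31.7 CPM of Adrb1 (highest, parenchyma of PBS mice with smoke and DEX), 0.611 CPM of Hrh1 (lowest, airways of PBS mice with smoke and DEX), 7.49 CPM of Adora1 (highest, parenchyma of PBS mice with air) and 18.3 CPM of Pde4d (highest, parenchyma of HDM mice with air and DEX).

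Effects that differed between groups were marked in 17 results of the 8 comparisons of effects, as log2 differences by limma. Between tissues the HDM effect (airway minus parenchyma) differed at 3 weeks for Chrm1 (1.56), Hrh1 (-0.78) and Adora1 (-0.78), and at 11 weeks for Adrb1 (0.65), Adora1 (-1.38) and Pde4b (0.61). Between smoke and air mice the HDM effect in airways differed for Chrm2 (1.16), Adrb1 (0.84) and Hrh1 (-0.74), and in parenchyma for Chrm1 (1.63), Chrm3 (0.50), Adrb1 (1.29), Hrh1 (-0.77) and Adora1 (-1.05). The DEX effect in parenchyma differed between HDM and PBS mice for Adrb1 (1.09). Between 11 and 3 weeks the HDM effect on Pde4d differed in airways (-0.73) and parenchyma (-0.58).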

How the results depend on the processing

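The labels do not say that an airway and a parenchyma library share a mouse. Libraries with consecutive codes were compared after the data were seen, as the correlation of their deviations from the group means. It was -0.189 to 0.385 (median 0.15) over 21 pairs at 3 weeks, with 14 over 0.1. At 11 weeks it was -0.002 to 0.544 (median 0.2475) over 80 pairs, with 72 over 0.1. The correlation was highest for the library with the consecutive code in 12 and 62 pairs. For other pairings within an exposure the median was -0.014 at 3 weeks and -0.026 at 11 weeks. Libraries with consecutive codes thus deviated together in many pairs, which the main fits do not take into account. With a replicate block of these pairs, 6 genes were called between tissues at 3 weeks (58.1% of all genes tested) and 7 at 11 weeks (65.8%). For the difference of HDM effects between tissues, 4 were called at 3 weeks (20.6%) and 4 at 11 weeks (43%). Without the block the shares of all genes for that difference were 17.3% and 27.6%, so the block raised calls in general. Between tissues at 3 weeks Adora2b was lost (log2FC -0.19, adjusted p = 0.055), and the difference of HDM effects was gained for Pde4b at 3 weeks (0.42, adjusted p = 0.044) and Chrm2 at 11 weeks (-1.17, adjusted p = 0.01).

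The following totals cover each gene in each comparison that was called or had an absolute log2FC of at least 0.25. Of 1328 alternatives, 1219 kept their direction and their side of the threshold, 53 lost a call, 56 gained one and 0 reversed. Of 254 counts of genes called, 210 stayed within 1.5 times and 44 did not. Except for the replicate block, no share of all genes called was kept for these alternatives or for the refits below. A change in these counts therefore cannot be read as particular to the 9 genes. A CPM of at least 10 in 9 libraries left 4 of the 9 genes to test at 3 weeks and 6 at 11 weeks. It called 3 (airways) and 2 (parenchyma) for HDM at 3 weeks, 3 between tissues and 0 for the difference of HDM effects between tissues. At 11 weeks it gave 5 and 3 for HDM, 1 and 2 for smoke, 4 and 2 for HDM with smoke, 0 for DEX in HDM airways, 1 for DEX in PBS parenchyma, 2 for DEX in smoke parenchyma (1 with all 9 tested) and 3 for the interaction of HDM and smoke in parenchyma. In airways, smoke called 1 gene with edgeR, with DESeq2, with no filter and with libraries of 1 tissue. DEX called 1 with DESeq2, 0 with no filter and 1 with 1 tissue. DEX in HDM airways called 2 with DESeq2, 0 with its size factors, 0 with no filter, 2 with sample quality weights, 3 without the least correlated library of each group, 3 with all libraries together and 0 with 1 tissue. DEX in smoke airways called 2 with quality weights and 0 with 1 tissue. DEX in HDM airways with smoke called 1 without the 12 airway libraries, and the difference of DEX effects between HDM and PBS airways 1 with quality weights and 1 without the least correlated libraries. In parenchyma, DEX called 5 with quality weights, DEX with smoke 3 with quality weights, 2 with all libraries together and 3 with 1 tissue, and DEX with HDM and smoke 1 with quality weights and 2 with 1 tissue. The difference of HDM effects between tissues at 11 weeks called 1 with quality weights, and that between weeks in airways 3 with edgeR and 3 with DESeq2. The smooth muscle covariate left 3 for HDM in airways at 11 weeks. By Spearman's rho, 9 of the 27 most similar genes were named again. The causes were not tested.

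Leaving out each library at 3 weeks changed 45 of 1333 calls, and the counts ranged from 6 to 7 for HDM in airways, 8 to 8 in parenchyma, 5 to 8 between tissues and 2 to 4 for the difference. The change of most refits was in Adora2b between tissues, lost in 26 of 43, and in Pde4b with HDM in airways, gained in 13 of 43. Depth limited Chrm1 and Hrh1 most.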
